A study of Mus musculus with 4 samples.

Results

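Potassium channel genes were taken as every gene whose symbol starts with Kcn, the naming root shared by mouse potassium channel subunits and by several proteins that bind them. Symbols came from the RefSeq accession that the array gives for each probe. By this rule 80 of the 17016 genes with a symbol on the array were Kcn genes. A probe counted as measured where 1 group or both had a signal well above background on each of its arrays. This held for 50 Kcn probes of 44 genes and not for 57 further Kcn probes, and for 25078 of the 41174 probes in all. The rule reads the symbol and whether a probe was detected, not the size of a change.

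Messenger RNA was read on 4 one-colour Agilent arrays, 1 per sample, from mouse embryonic stem (ES) cells of a line in which loss of FBL is switched by tetracycline (Tc). FBL is fibrillarin, the nucleolar RNA methyltransferase that acts with small nucleolar RNAs on ribosomal RNA. The 2 control samples grew with 1000 ng/mL Tc and expressed FBL, and the 2 FBL knock-down samples grew without Tc. Both groups come from the same Tc-inducible line and grew for 2 days on gelatin with leukaemia inhibitory factor (LIF), the cytokine that holds mouse ES cells undifferentiated. The drug and the knock-down therefore cannot be told apart in this design. The sources used here do not say how the knock-down was built or whether the line is 1 clone. Nothing in the labels says that samples of a group were separate cultures, so the spread behind each p-value is that between these samples and may be technical.

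Potassium channels let potassium ions leave or enter the cell along their gradient and so set the membrane potential. Voltage-gated (Kv) channels open on depolarisation, inward rectifiers (Kir) pass current best near the resting potential, 2-pore-domain (K2P) channels carry leak current, and calcium- and sodium-activated channels open with those ions inside the cell. Auxiliary subunits do not form the pore but change how the pore-forming alpha subunits open or reach the membrane. Many of these genes are best known from neurons and heart muscle, and ES cells express several of them at low levels.

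Values are log2 signals on a scale set by the 75th percentile of each array, so that 0 is that percentile and dim probes are negative. The lowest value still well above background was between −6.21 and −5.5 on the 4 arrays. Fbl read 8.63 and 8.12 in controls 1 and 2 and, in the same order, 5.98 and 5.94 after knock-down. This fall of 5.32-fold passed the test (limma log2 change −2.41, SE 0.25, n = 2 in each group, adjusted p = 0.000444). All 14 probes of 11 ES cell markers were well above background on every array, and none of them rose or fell. The 4 arrays had between 59.5% and 64.1% of probes well above background. Controls differed from each other more (SD of the difference over probes 0.51) than knock-down samples did (0.31). Knock-down sample 2 lay on a second slide and the other 3 samples on the first, so values within the first slide are those without knock-down sample 2.

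After FBL knock-down 6 of the 50 measured Kcn probes rose and 3 fell (limma, Benjamini-Hochberg adjusted p at most 0.05 over all 25078 probes). Those that rose belong to Kcnh1, Kcne1l, Kcne1, Kcnd1, Kcnt1 and Kcnip2, and those that fell to Kcnj16, Kcnt2 and Kcnj12. The Kcn shares of 12% and 6% stand beside 3.73% and 2.47% of all measured probes that rose and fell (6.2% either way). At an unadjusted p under 0.05, 12 Kcn probes were higher and 9 lower, beside 2376 and 2653 of all 25078. The median log2 change over measured Kcn probes was 0.14, against −0.06 over all measured probes. In RNA of whole cultures, fewer cells that express a gene and less RNA per cell cannot be told apart.

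Of the 50 measured Kcn probes, 39 were well above background on all 4 arrays, and among these 2 rose (Kcnt1 and Kcnip2) and 1 fell (Kcnj12). Over all 23346 probes bright on every array the shares were 3.11% and 1.75%. The other 6 calls came from the 11 Kcn probes below background on at least 1 array. A probe detected in only 1 group entered the test through that group, which favours a difference, so nothing is read from the share of calls among those 11.

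**Figure D1:**
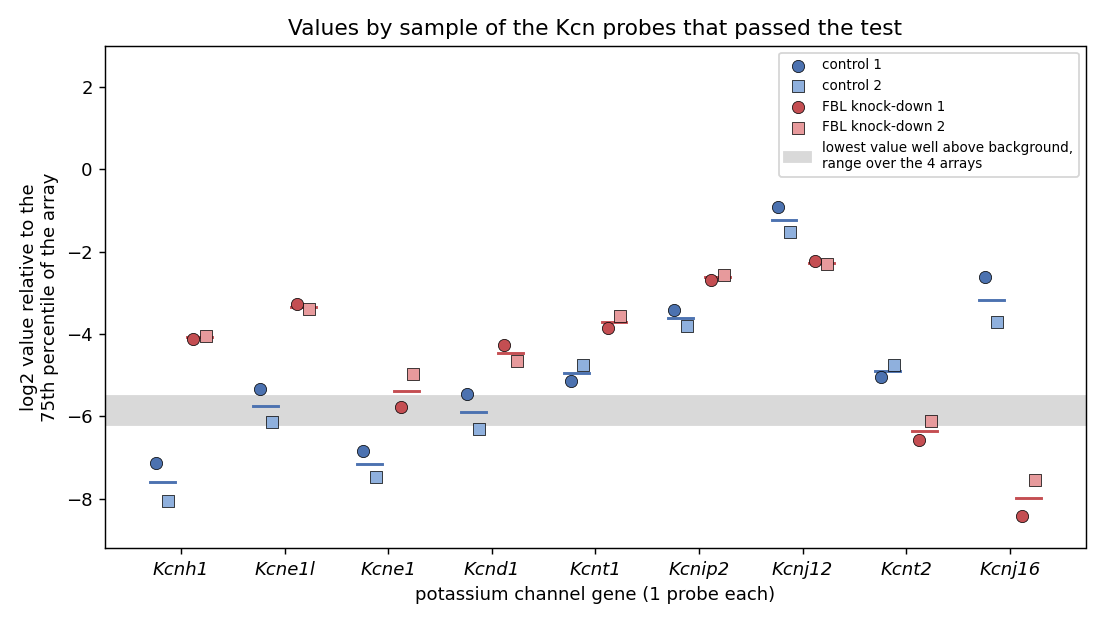
Log2 value on the scale of the array's 75th percentile (vertical axis) for the 9 Kcn probes that passed the test, with both controls in blue and both FBL knock-down samples in red; horizontal lines are group means and the grey band spans the lowest values well above background on the 4 arrays. Kcnh1 and Kcnj16 have 1 group well below the band, whereas Kcnt1, Kcnip2 and Kcnj12 lie above it in every sample.

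The promoters of the genes that passed are shown because these genes carry the changes described here, with 1 promoter for each gene that has one. Of the 44 measured Kcn genes 30 had a promoter in the RefSeq table (build GRCm38.p6), with 39 promoters, each running from 250 bases before to 50 bases after the annotated start. Kcnd1, Kcne1 and Kcnt1 had none there. Capitals mark CpG pairs, the dinucleotide that can carry DNA methylation, and sequences read 5′ to 3′ on the strand of the gene. Those that rose are Kcnh1 (chr1:192190527-192190826, plus strand), Kcne1l (chrX:142306149-142306448, minus strand) and Kcnip2 (chr19:45816014-45816313, minus strand). Those that fell are Kcnt2 (chr1:140245468-140245767, plus strand), Kcnj12 (chr11:61065554-61065853, plus strand) and Kcnj16, with the first of its 4 annotated promoters (chr11:110967783-110968082, plus strand).
Kcnh1: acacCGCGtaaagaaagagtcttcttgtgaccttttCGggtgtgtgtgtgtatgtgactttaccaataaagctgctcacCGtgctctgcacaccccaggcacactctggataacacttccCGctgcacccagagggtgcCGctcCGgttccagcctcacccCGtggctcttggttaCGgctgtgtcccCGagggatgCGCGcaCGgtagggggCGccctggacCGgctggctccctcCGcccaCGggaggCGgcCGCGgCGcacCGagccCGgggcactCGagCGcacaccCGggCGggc
Kcne1l: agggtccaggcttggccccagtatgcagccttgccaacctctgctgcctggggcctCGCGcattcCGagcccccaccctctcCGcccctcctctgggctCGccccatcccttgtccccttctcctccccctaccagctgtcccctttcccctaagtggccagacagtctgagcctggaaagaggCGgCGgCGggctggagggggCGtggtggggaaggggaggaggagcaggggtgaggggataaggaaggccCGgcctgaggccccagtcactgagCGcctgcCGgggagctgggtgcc
Kcnip2: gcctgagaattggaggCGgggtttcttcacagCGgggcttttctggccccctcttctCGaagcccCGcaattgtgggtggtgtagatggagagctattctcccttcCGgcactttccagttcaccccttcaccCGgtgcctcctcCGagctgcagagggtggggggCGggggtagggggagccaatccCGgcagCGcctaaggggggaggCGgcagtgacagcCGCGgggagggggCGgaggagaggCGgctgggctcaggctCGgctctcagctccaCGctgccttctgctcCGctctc
Kcnt2: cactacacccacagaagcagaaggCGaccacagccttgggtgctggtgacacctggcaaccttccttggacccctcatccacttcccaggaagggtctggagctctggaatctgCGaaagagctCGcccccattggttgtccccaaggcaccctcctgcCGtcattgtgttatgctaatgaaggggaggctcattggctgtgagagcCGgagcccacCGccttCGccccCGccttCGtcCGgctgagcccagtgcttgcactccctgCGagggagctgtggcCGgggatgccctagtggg
Kcnj12: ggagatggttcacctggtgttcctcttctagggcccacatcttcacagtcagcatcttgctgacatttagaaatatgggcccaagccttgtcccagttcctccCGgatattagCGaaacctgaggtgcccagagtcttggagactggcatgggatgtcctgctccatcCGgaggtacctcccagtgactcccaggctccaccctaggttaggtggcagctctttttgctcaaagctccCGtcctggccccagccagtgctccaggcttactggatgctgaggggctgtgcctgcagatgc
Kcnj16: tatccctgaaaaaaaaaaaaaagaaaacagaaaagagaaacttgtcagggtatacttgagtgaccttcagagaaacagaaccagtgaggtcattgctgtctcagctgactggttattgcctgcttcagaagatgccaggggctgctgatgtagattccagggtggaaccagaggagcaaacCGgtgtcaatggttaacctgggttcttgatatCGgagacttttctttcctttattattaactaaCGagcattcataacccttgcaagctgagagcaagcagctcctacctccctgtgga
The Kcnh1 promoter holds 27 CpG pairs and the Kcne1l promoter 12. Kcnj12 has 4 in its promoter and Kcnj16 has 3, 8, 5 and 1 in its 4 promoters. For Kcnip2 the count was 18, and for Kcnt2 it was 12. Over all 32851 promoters of the table the median was 7 CpG pairs, with quartiles of 3 and 20, and over the 39 promoters of measured Kcn genes it was 12. Among the genes that passed the test, those that rose had 12 to 27 pairs and those that fell had 1 to 12, a description of the 6 genes with a promoter in the table. A TATAAA box, searched on both strands, was found in 1 promoter of these genes, the third of Kcnj16, and in 13.6% of all promoters. No CACGTG, a palindrome bound by MYC-type factors, was found in them, but 3 of the 39 Kcn promoters and 7.15% of all promoters held it.

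Among pore-forming Kv alpha subunits, 15 probes of 15 genes were measured, of which 2 rose and none fell. Over all measured probes 3.73% rose and 2.47% fell. Neither Kv probe that rose was well above background on all 4 arrays, so nothing is read from this count. Their median log2 change was 0.12. At an unadjusted p under 0.05, 3 were higher and 1 lower.

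Kcnh1, an ether-à-go-go channel best known from brain and from tumour cells, read −7.14 and −8.06 in the controls and −4.11 and −4.05 after knock-down. The knock-down samples lay close together and well above background, and neither control was well above background. On the scale of the deposited values Kcnh1 was at least 3.18-fold higher after knock-down (log2 change 3.52 ± 0.30 SE between measured means, limma adjusted p = 0.00021). With normexp background correction, explained further on, the log2 change was 0.55 and the call was lost (adjusted p = 0.19). Each such bound, here and below, holds on the scale of the deposited values. It replaces each value of the dimmer group by the lowest value well above background on that array wherever the probe lay below it. A probe with a bound entered the test through its brighter group alone, which favours a difference. A second Kcnh1 probe was not well above background on any array, with −7.67 and −8.10 in the controls and −6.24 and −7.36 after knock-down.

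Kcnd1, a Shal-type channel that gives fast transient outward current, read −5.45 and −6.31 in the controls and −4.27 and −4.66 after knock-down. The groups did not overlap, but only 1 control was well above background. Kcnd1 rose 2.66-fold (log2 change 1.41 ± 0.30 SE, limma adjusted p = 0.0223). Without control 2 its adjusted p was 0.0547, and without knock-down sample 1 it was 0.128. With normexp it was 0.0762, at a log2 change of 0.67.

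The other 13 Kv genes did not pass. Kcnh8 of the ether-à-go-go group came nearest, with −4.21 and −3.90 in the controls and −3.22 and −3.36 after knock-down (log2 change 0.77 ± 0.23 SE, adjusted p = 0.0905). Kcnh2, which encodes the ERG channel of cardiac repolarisation, read −0.21 and −0.92 in the controls against −0.89 and −0.90 after knock-down, so the groups overlapped. Its log2 change was −0.33 ± 0.27 SE, with 0.03 without control 1 and −0.68 without control 2, where it passed (adjusted p = 0.0432). Kcns3, a silent subunit that modifies other Kv channels, read −2.60 and −2.50 in the controls and −2.45 and −2.41 after knock-down, a log2 difference of 0.12 ± 0.22 SE.

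Among Kir subunits 10 probes of 9 genes were measured, of which none rose and 2 fell, with a median log2 change of 0.02. The shares over all measured probes were 3.73% and 2.47%, and nothing is read from so few Kir calls. Kcnj16 encodes a Kir subunit that is known to work mainly as a heteromer with the Kcnj10 product in kidney and glia. It read −2.62 and −3.70 in the controls and −8.41 and −7.54 after knock-down. Both controls were clearly above background and neither knock-down sample was. Kcnj16 was at least 6.47-fold lower after knock-down (log2 change −4.81 ± 0.38 SE between measured means, limma adjusted p = 0.000177). With normexp it passed as well, at a smaller log2 change of −1.11, so the bound holds only for the deposited values. The probe entered both fits through the controls alone, which favours a fall.

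A second Kcnj16 probe was well above background on 1 array of each group and did not show this difference, with −5.79 and −5.36 in the controls and −5.66 and −6.79 after knock-down. The third Kcnj16 probe was above background on no array. Neither entered the test, so the fall rests on 1 of 3 probes. Its partner Kcnj10 read −1.74 and −1.55 in the controls and −2.18 and −2.44 after knock-down. These groups were separate, with a log2 change of −0.67 ± 0.23 SE that did not pass (adjusted p = 0.137).

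Kcnj12 encodes a strong inward rectifier known from heart and skeletal muscle. Its probe was well above background throughout, with −0.92 and −1.51 in the controls and −2.23 and −2.30 after knock-down, and every knock-down value lay below every control. Kcnj12 fell 2.07-fold (log2 change −1.05 ± 0.26 SE, limma adjusted p = 0.0411). The call was close to the threshold. Its adjusted p was 0.413 within the first slide and 0.236 without knock-down sample 1, with log2 changes of −1.01 and −1.09. With normexp it was 0.0721, at −0.67.

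Kcnj4, another strong inward rectifier of the same subfamily as Kcnj12, lay just outside the threshold with both of its measured probes, on the opposite side. The first probe read 1.02 and 0.24 in the controls and 1.69 and 1.72 after knock-down (log2 change 1.08 ± 0.28 SE, adjusted p = 0.0514). The second read −3.80 and −4.22 in the controls and −2.94 and −3.23 after knock-down (0.92 ± 0.25 SE, adjusted p = 0.0583). Neither probe's groups overlapped. Without control 1 both probes passed (adjusted p = 0.0125 and 0.0287), and without control 2 the first did (0.043) and the second did not (0.0713). Neither passed within the first slide (0.327 and 0.323) or without knock-down sample 1 (0.231 and 0.644).

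Kcnj14, a further Kir gene well above background on all arrays, shows how far 1 sample can move a probe. It read −2.16 and −2.51 in the controls, −2.71 in knock-down sample 1 and −1.38 in knock-down sample 2, so the groups overlapped. Its log2 change was 0.29 ± 0.38 SE, and −0.38 within the first slide.

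Kcnj6, a G-protein-gated Kir subunit of neurons, is counted among the unmeasured genes although its deposited values are not all low. One of its 2 probes was below background on every array, with −7.82 and −8.31 in the controls and −8.51 and −7.82 after knock-down. The other is printed on 10 spots per array. Its deposited values were −4.54 and −2.45 in the controls and −7.86 and −5.20 after knock-down. Only 1 of 10 spots was well above background on each of control 1, control 2 and knock-down sample 2, and 0 on knock-down sample 1. The median spot read −7.6 and −8.16 in the controls and −8.2 and −7.41 after knock-down. In control 2 the single bright spot had a processed signal of 146.7, against 2.8 for the median spot, and carried an outlier flag in the scanner file.

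The same averaging held for all 245 probes printed on 10 spots: on every array the deposited value equalled, within 0.01, the mean of the spots well above background, or of all spots where none was. The mean of all spots matched for only 196 to 212 of them. Kcnn2, the other Kcn probe with 10 spots, had all 10 well above background on every array, and the mean of all its spots lay within 0.01 of the deposited value.

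**Figure D2:**
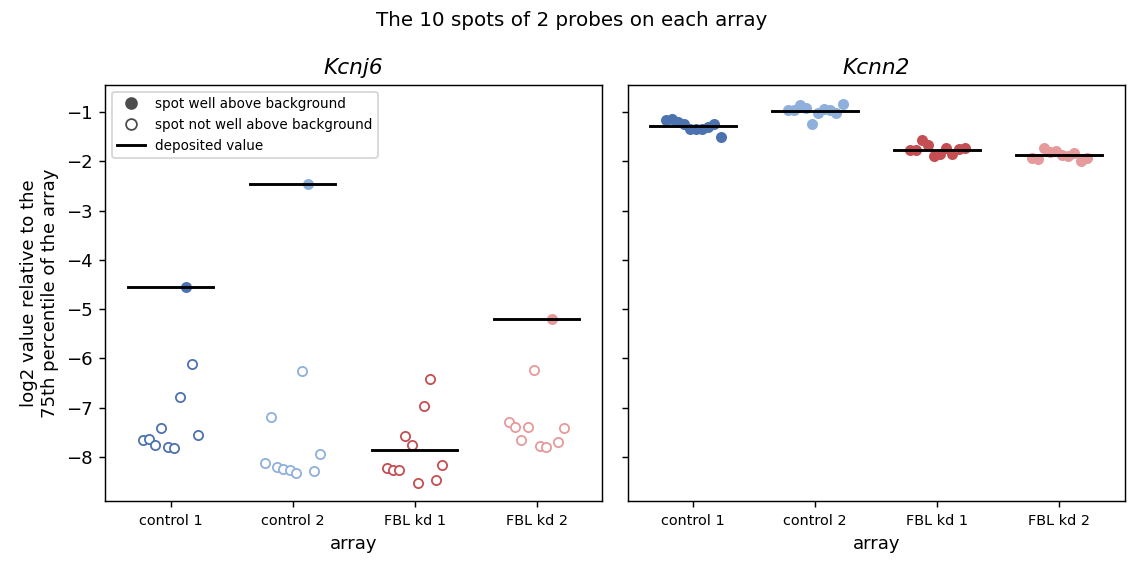
Log2 value on the scale of the array's 75th percentile for each of the 10 spots of the Kcnj6 probe (left) and the Kcnn2 probe (right) on the 4 arrays; filled points are spots well above background, open points are not, and the black line is the deposited value. For Kcnj6 the line follows a single filled spot on 3 arrays, at −4.54, −2.45 and −5.20, whereas for Kcnn2 it runs through all 10 spots.

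K2P subunits gave 9 measured probes of 7 genes, of which none rose or fell by limma, and 1 was higher and 1 lower at an unadjusted p under 0.05. Their log2 changes ran from −0.68 to 0.53 with a median of 0.07. Kcnk1, a weakly rectifying leak subunit, read 0.34 and 0.05 in the controls and 0.21 and 0.17 after knock-down. The groups overlapped at a log2 change of −0.01 ± 0.23 SE, whose sign turned under several scalings. Kcnk13, an arachidonic acid-sensitive relative, read −0.01 and −0.37 in the controls and −0.24 and 0.01 after knock-down (0.07 ± 0.24 SE), again with overlap.

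The acid-sensitive channel Kcnk5 had 2 measured probes. The first read 0.91 and 0.43 in the controls and 1.09 and 1.07 after knock-down, a log2 change of 0.41 ± 0.25 SE, and the second differed by 0.38 ± 0.25 SE. In both, the knock-down values lay above both controls without passing (adjusted p = 0.405 and 0.441 in that order). Kcnk6 read −0.62 and −0.70 in the controls and −0.14 and −0.13 after knock-down, which is separate and tight in both groups, with 0.53 ± 0.22 SE and an adjusted p of 0.217. The acid-sensitive Kcnk3 had log2 changes of −0.68 ± 0.27 SE and −0.27 ± 0.27 SE at its 2 probes, neither past the threshold.

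Calcium- and sodium-activated alpha subunits gave 7 measured probes of 5 genes. Of these 1 rose and 1 fell, beside 3.73% and 2.47% of all measured probes, and nothing is read from these counts. The 2 called probes belong to the sodium-activated pair Kcnt1 (Slack) and Kcnt2 (Slick), whose products can assemble with each other. Kcnt1 read −5.14 and −4.75 in the controls and −3.86 and −3.56 after knock-down. All 4 values were well above background and the groups did not overlap. Kcnt1 rose 2.36-fold at this probe (log2 change 1.24 ± 0.25 SE, limma adjusted p = 0.0151).

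The call at Kcnt1 changed when a knock-down sample was left out, with an adjusted p of 0.298 within the first slide and 0.0522 without knock-down sample 1. A second measured Kcnt1 probe read −5.61 and −6.08 in the controls and −5.71 and −5.02 after knock-down, and overlapped (log2 change 0.48 ± 0.29 SE, adjusted p = 0.399). The third Kcnt1 probe did not count as measured. With normexp the first probe differed by 0.24 (adjusted p = 0.708) and the second by 0.02.

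Kcnt2 went the other way. One probe read −5.03 and −4.75 in the controls and −6.57 and −6.12 after knock-down, where neither value was well above background. It was at least 1.95-fold lower after knock-down (log2 change −1.46 ± 0.25 SE between measured means, limma adjusted p = 0.0072). Without knock-down sample 1 the adjusted p was 0.119. With normexp the log2 change was −0.22 and the call was lost (adjusted p = 0.747). The second Kcnt2 probe read −4.04 and −5.71 in the controls and −6.05 and −7.26 after knock-down, separate but widely spread within both groups (−1.78 ± 0.51 SE, adjusted p = 0.0731).

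The calcium-activated Kcnn genes, which encode channels of small and intermediate conductance, did not pass. Kcnn2 read −1.28 and −0.97 in the controls and −1.76 and −1.87 after knock-down, with separate groups and a log2 change of −0.69 ± 0.23 SE (adjusted p = 0.126). Kcnn1 differed by −0.29 ± 0.25 SE and Kcnn4 by 0.28 ± 0.26 SE. Kcnn4 was −0.02 without control 2.

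Auxiliary subunits and regulators gave 9 measured probes of 8 genes, of which 3 rose and none fell, beside 3.73% and 2.47% of all measured probes. Their median log2 change of 0.60 was the highest of the 5 classes, and 8 of the 9 changes were positive, beside 11065 of 25078 over all measured probes. At an unadjusted p under 0.05, 5 were higher and 1 lower. Kcne1l and Kcne1 were measured through the knock-down group alone, which favours a positive change. Nothing is therefore read from these counts or this median. The small membrane proteins Kcne1l and Kcne1 belong to the family of single-span beta subunits, of which Kcne1 is known for slowing the Kcnq1 channel in heart and inner ear.

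Kcne1l, also known as Kcne5, read −5.34 and −6.13 in the controls and −3.27 and −3.40 after knock-down. Neither control was well above background, and both knock-down samples were, close to each other. Kcne1l was at least 5.05-fold higher after knock-down (log2 change 2.40 ± 0.28 SE between measured means, limma adjusted p = 0.000916). With 1 sample left out its log2 change lay between 2.01 and 2.80. With normexp it passed at a smaller log2 change of 0.92, so the bound holds only for the deposited values. All these runs kept the same filter, which Kcne1l met through the knock-down group alone, so they are not separate support.

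Kcne1 read −6.83 and −7.47 in the controls and −5.76 and −4.98 after knock-down. The groups did not overlap, but the knock-down values lay near the lower limit of detection. Kcne1 was at least 1.3-fold higher (log2 change 1.78 ± 0.31 SE between measured means, limma adjusted p = 0.00821). Its adjusted p was 0.0638 within the first slide and 0.0674 without control 2. With normexp the log2 change was 0.36 (adjusted p = 0.506). A second Kcne1 probe, above background on no array, read −6.50 and −6.25 in the controls and −7.62 and −7.76 after knock-down, the opposite order. Kcnq1, the alpha subunit that Kcne1 is known to join, read −3.74 and −3.92 in the controls and −3.85 and −4.20 after knock-down, which overlapped (−0.19 ± 0.24 SE).

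Kcnip2, a calcium-binding protein that assembles with Kcnd channels in heart and brain, read −3.42 and −3.81 in the controls and −2.68 and −2.56 after knock-down. All values were well above background, and both knock-down samples lay above both controls. Kcnip2 rose 1.99-fold (log2 change 0.99 ± 0.24 SE, limma adjusted p = 0.0373). The adjusted p was 0.552 within the first slide and 0.269 without knock-down sample 1, with log2 changes of 0.93 and 1.05. With normexp the log2 change was 0.34 (adjusted p = 0.539). Kcnip3, of the same family, overlapped between groups at both of its measured probes, with log2 changes of 0.19 ± 0.24 SE and 0.13 ± 0.23 SE.

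Kcnab3, a cytoplasmic beta subunit of Kv channels, was the only auxiliary probe with a negative change among the 9 measured. It read −3.37 and −3.67 in the controls and −4.26 and −4.60 after knock-down, separate and just outside the threshold (log2 change −0.91 ± 0.24 SE, adjusted p = 0.0565). With normexp the Kcnab3 change was −0.11 (limma adjusted p = 0.892), and with 1 sample left out it ran from −1.08 to −0.74. Kcnmb4, the beta subunit of large-conductance calcium-activated channels in neurons, read −2.83 and −3.53 in the controls and −2.33 and −2.26 after knock-down. Its groups were separate as well (0.89 ± 0.27 SE, adjusted p = 0.091). Kcnma1, the pore-forming gene of that channel, was not measured.

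**Figure D3:**
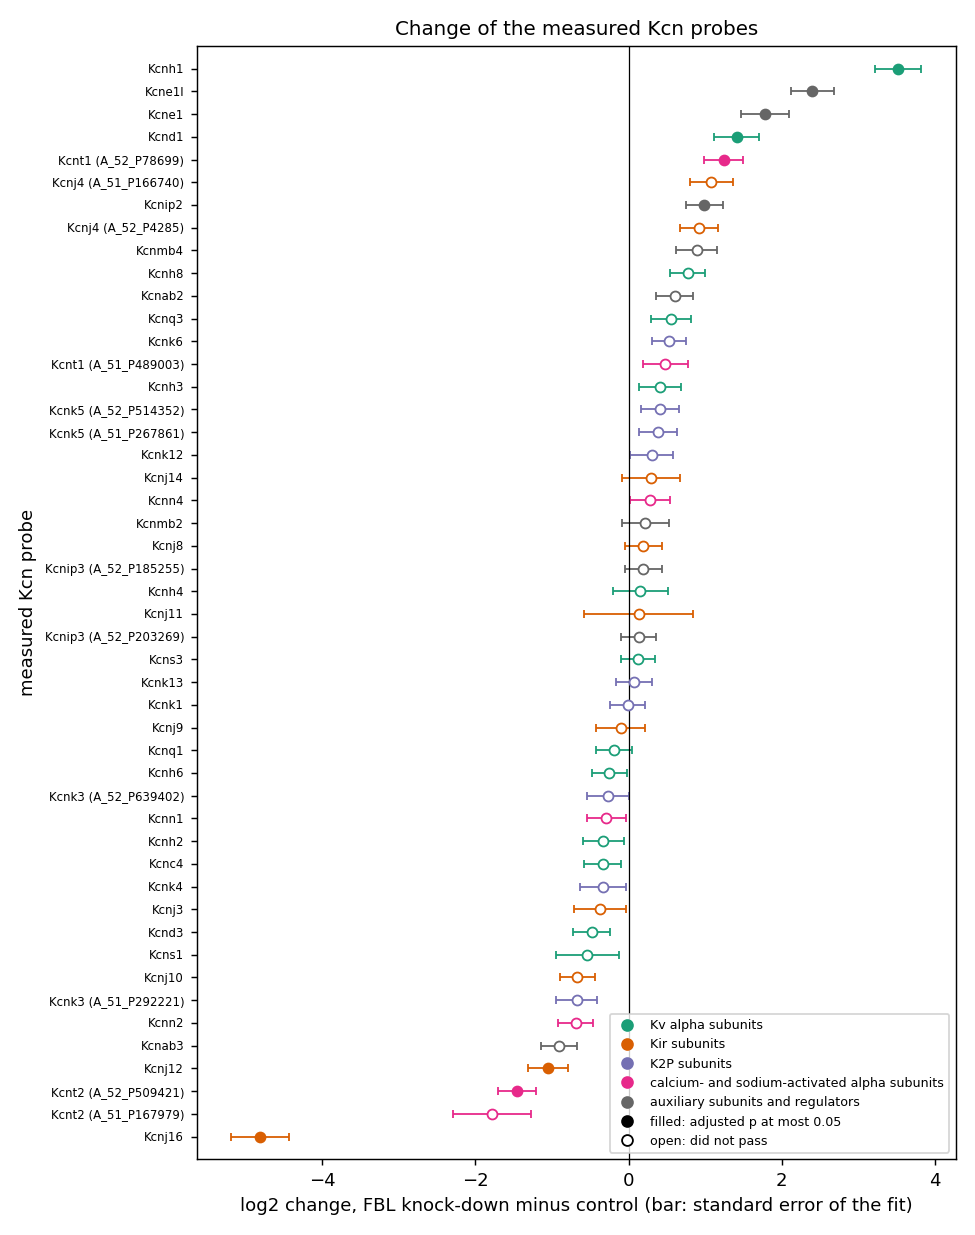
Log2 change, FBL knock-down minus control (horizontal axis), with the standard error of the limma fit, for 48 of the 50 measured Kcn probes in order of size; colours give the channel class and filled points passed an adjusted p of 0.05. Filled points lie at both ends, from −4.81 for Kcnj16 to 3.52 for Kcnh1, and Kcnj4 (1.08) is open although it lies above the filled point of Kcnip2 (0.99).

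Across the 50 measured Kcn probes, the knock-down samples lay above both controls in 17 and below both in 13. Over all measured probes 20.8% were separate upward and 30.6% downward (51.4% either way). Patterns in which 1 group was well above background on both arrays and the other on neither were found in 4 Kcn probes upward (Kcnh1, Kcne1l, Kcne1 and the second Kcnt1 probe) and in 2 downward (Kcnj16 and Kcnt2), against 0.921% and 0.722% of all measured probes. The 2 sets differ in brightness: 11 of the 50 Kcn probes, but 1732 of all 25078, were not well above background on all 4 arrays. The shares over all probes are thus not a like base, and nothing is read from these counts.

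Control samples differed for Kcn probes more than knock-down samples did. In 43 of the 50 Kcn probes control 2 read below control 1, with a median difference of −0.45, against 59.8% of all measured probes and a median of −0.15. Knock-down sample 2 read below sample 1 in 24 of 50, with a median difference of 0.01. The median measured Kcn probe read −3.50 and −3.91 in the controls and −3.71 and −3.69 after knock-down, so the knock-down medians lay between those of the controls. Without control 1, 18 Kcn probes rose and 5 fell, beside 12% and 9.48% of all measured probes. Without control 2, 6 rose and 6 fell, beside 5.99% and 6.87%. Without knock-down sample 1, 3 rose and 2 fell, beside 2.26% and 1.58%. Within the first slide, 3 rose and 2 fell, beside 1.84% and 0.893%. The median Kcn change was 0.40 without control 1 and −0.04 without control 2.

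Values were also rebuilt from the median signal of each spot with the normexp background correction, which keeps all signals positive, and an offset of 50. This differs from the deposited values in the signal, the background correction and the offset together, and their parts were not separated. The median size of the Kcn log2 changes was then 0.25 instead of 0.48, and over all measured probes it was 0.21 instead of 0.26. Of the 9 calls only Kcne1l (0.92, adjusted p = 0.00411) and Kcnj16 (−1.11, adjusted p = 0.000166) passed in that fit, where 3 Kcn probes rose and 1 fell beside 3.02% and 1.82% of all measured probes. The first Kcnj4 probe (0.87, adjusted p = 0.00735) and Kcnmb4 (0.79, adjusted p = 0.0209) passed there as well. The second Kcnj4 probe did not (0.16, adjusted p = 0.839). The 7 calls that were lost had log2 changes from 0.24 to 0.67 upward (Kcnt1, Kcnip2, Kcne1, Kcnh1 and Kcnd1) and of −0.22 and −0.67 downward (Kcnt2 and Kcnj12). All 9 kept their sign, and all 9 differed from the deposited-value change by over 1.5 times.

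**Figure D4:**
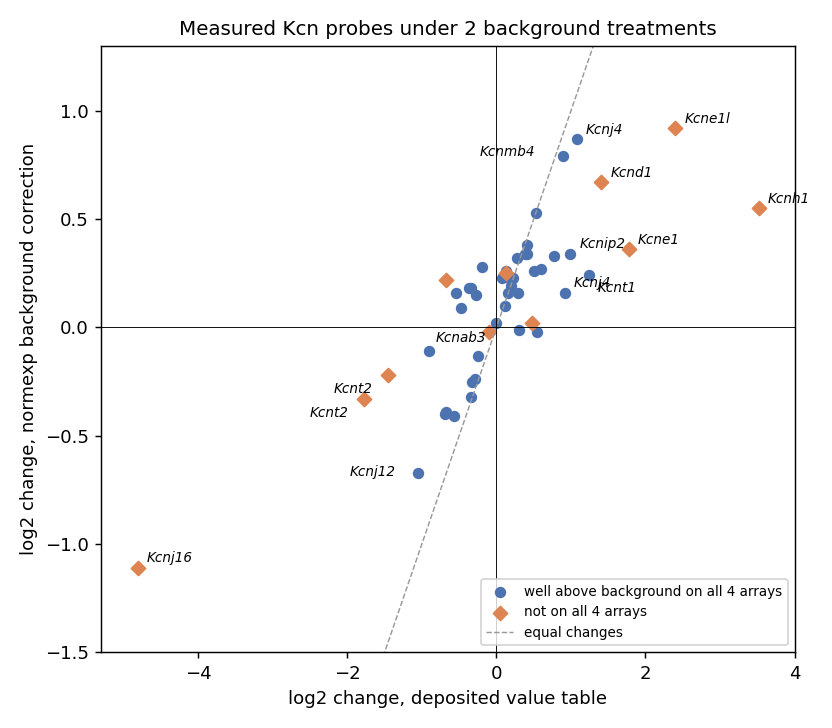
Log2 change, FBL knock-down minus control, of the 50 measured Kcn probes from the deposited values (horizontal axis) and after normexp on the median signal (vertical axis, drawn on a wider scale), with diamonds for probes not well above background on all 4 arrays and a dashed line for equal changes. Kcnh1 goes from 3.52 to 0.55 and Kcnj16 from −4.81 to −1.11, whereas the first Kcnj4 probe (1.08 to 0.87) and Kcnmb4 (0.89 to 0.79) lie near the line and the second Kcnj4 probe (0.92 to 0.16) does not.

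Markers of other cell types were read beside these results, since many Kcn genes are neuronal or cardiac. Over all measured probes 3.73% rose and 2.47% fell. Neuronal markers gave 7 measured probes out of 17, of which none rose and 2 fell (Nefl, log2 change −1.07, and Stmn2, −0.92). The linear level summed over all 17 probes, in multiples of the 75th percentile, was 19.7 and 15.6 in the controls. After knock-down it was 11.5 and 12.3. The brightest neuronal probe, which did not pass (log2 change −0.23, limma adjusted p = 0.715), weighs most in this sum. Sums here and in the next paragraph run over all probes of a list, measured or not. Of 6 measured mesoderm and cardiac probes 1 fell (Tnnt2, −1.57), with summed levels of 1.65 to 1.68 in the controls and 1.32 to 1.40 after knock-down. Neural progenitor markers showed no call among 4 measured probes, with sums of 0.924 to 0.968 and 1.04 to 1.07. Their part in the Kcn differences was not tested.

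Markers of extra-embryonic and stromal cells were read in the same way. Among 9 measured primitive endoderm probes 1 rose, a Sox17 probe at least 1.52-fold higher (a second, at 0.80, had an adjusted p of 0.114), while the summed level was 24.4 to 28.5 in the controls and 23.6 to 26.2 after knock-down. Elf5 (−1.63) fell among 7 trophectoderm probes, whose sum was 17 to 21.3 in the controls and 26.1 to 29.6 after knock-down, higher without overlap. Cdx2 (0.83), Tfap2c (0.82) and Hand1 (0.71) of that list were separate and higher, with adjusted p-values of 0.0687, 0.0715 and 0.0986. Eomes (−0.36) and both Krt8 probes (−0.22 and −0.32) had negative changes that did not pass either. The median log2 change of the list was −0.22. Tfap2c was its brightest probe and weighs most in the sum. Thy1 (−1.35) fell among 4 fibroblast probes, whose sum was 4.53 to 6.97 in the controls and 3.33 to 3.62 after knock-down, lower without overlap. A second Thy1 probe, the brightest of that list, weighs most in this sum and did not pass (−0.75, limma adjusted p = 0.14). Col1a1 (0.47) and Col1a2 (0.26) had positive changes that did not pass. The part of these cell types in the Kcn differences was not tested. Of the ES cell markers Nanog came nearest to the threshold (−0.82, adjusted p = 0.0605). At an unadjusted limma p under 0.05 none of the 14 ES marker probes was higher and 4 were lower, with a median log2 change of −0.15. The summed ES marker level overlapped between groups, but Dppa5a, the brightest gene of the list, weighs most in it.

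Proteins that work with potassium channels but carry other names were followed on a list of their own. Of 19 measured probes none rose or fell by limma, and none was higher and 2 were lower at an unadjusted p under 0.05. The median log2 change was −0.21. Calm2 differed by −0.47 ± 0.23 SE and the kinase gene Sgk1 by −0.39 ± 0.23 SE. Calm2 encodes calmodulin, the calcium sensor bound to the Kcnn and Kcnq channels. Potassium pumps and cotransporters gave 31 measured probes without a call, 4 higher and 2 lower at an unadjusted p under 0.05, and a median of −0.03. The pump regulator Fxyd6 differed by −0.17 ± 0.24 SE.

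The remaining 36 Kcn genes had no measured probe. Of the 57 unmeasured probes 45 were well above background on no array and 12 on 1 array or on 1 array of each group. Kv genes without a measured probe included Kcna1, Kcna2, Kcna3, Kcna4, Kcna5, Kcnc1, Kcnc2, Kcnd2, Kcnf1, Kcng3, Kcng4, Kcnh5, Kcnh7, Kcnq5, Kcns2, Kcnv1 and Kcnv2, so that no Kcna gene was measured. Kir genes without one were Kcnj1, Kcnj2, Kcnj5, Kcnj6 and Kcnj15. The others were Kcnk2, Kcnk10, Kcnma1, Kcnn3, Kcnu1, Kcnab1, Kcne2, Kcne3, Kcne4, Kcnip1, Kcnip4 and Kcnmb1. A probe below background sets only an upper limit on its gene, and nothing is said here of their changes.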

How the data were processed

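The 2 control and 2 FBL knock-down samples were grouped by their titles. Per the file headers, the deposited spot intensity is background-subtracted by Agilent Feature Extraction 10.7.3.1. The authors' deposited value table holds log2 values with no stated scale. Set against the scanner files, at least 99.88% of entries per array equalled log2 processed signal less 1 constant to 0.01, with the 75th percentile at 0, column medians from −3.98 to −3.85 and no centring of probes. What software made it, the sources used here do not say. Each array had 96 to 138 outlier-flagged spots and no saturated one, and 50 probes with every spot flagged were dropped.

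Unversioned probe accessions were looked up in RefSeq's gene table for GRCm38.p6, which named 24375 probes with 1 gene and left 16799 unnamed. The array design refers to another build, so no probe coordinates are given. A probe with several spots counted as well above background where most spots were. Groups were compared by probe with limma 3.58.1 in R 4.3.3 (lmFit, eBayes, two-sided), with Benjamini-Hochberg adjustment over 25078 probes and a threshold of 0.05, after a check on simulated data. The number of arrays limits the precision.

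Named are Fbl and every Kcn gene that passed, was above background in 1 group only or changed by at least 1 (log2). Kcn genes with several measured probes or among the 4 brightest of a class are named too. Of other lists, called members are named or, where none passed, the probes of the 2 genes with the highest mean value. Kcnh8, Kcnq1, Kcnj6, Nanog, Dppa5a, Cdx2, Tfap2c, Hand1, Eomes, Krt8, Col1a1, Col1a2 and second probes outside these rules were chosen after their values were seen. The members and lists were chosen with earlier results of these data known. Alternatives covered the source of the values, background correction (normexp, offset 50, on the median signal, since the files hold no mean signal), scaling, filter, prior variance, slide, replicate block, probes of a gene and leaving out each sample. The use of the median signal, and an alternative that accepts a probe with any spot well above background, were chosen after seeing the data. A few genes of the lists are not reported here; counts include them.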

Additional observations from a re-analysis of the deposited data

How the results depend on the processing

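All 9 Kcn calls kept their sign under every alternative that tested them. Against 6 Kcn probes that rose and 3 that fell, there were 3 and 1 with normexp, 3 and 2 with the slide as a block, and 0 and 0 without a filter on dim probes (25 Kcn probes at an unadjusted p under 0.05 in limma, smallest adjusted p 0.0997). A robust variance trend gave 6 that fell. Leaving out 1 sample gave 3 to 18 that rose and 2 to 6 that fell, and a median Kcn change of −0.04 to 0.40. Over all probes, against 936 that rose and 620 that fell, these runs gave 462 to 3020 and 224 to 2378, the slide block 462 and 224, the robust trend 1457 and 1195, the plain trend 1006 that fell, quantile normalization 408 that fell, and no filter 0 and 0. Fbl stood at −2.41 (adjusted p = 0.0997) without a filter. The replicate differences of the groups were nearly uncorrelated over measured probes (0.023), which cannot tell whether same-numbered samples were paired. With the replicate number as a block 5 Kcn probes fell, and over all probes 1274 rose and 1012 fell. Dim probes limit the Kcn values. With normexp, slide or replicate block, or without a knock-down sample, the prior variance was taken as common to all probes, and a lone sample is assumed to vary like the other group. The cause of these shifts was not tested.

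Some probes that did not pass changed sign when a sample was left out. Those named by the rules above are given by their range over those runs: Kcnh2 −0.68 to 0.03, Kcnip3 −0.02 to 0.41 and −0.05 to 0.30, Kcnj14 −0.38 to 0.96, Kcnk1 −0.15 to 0.14, Kcnk13 −0.10 to 0.25, Kcnk3 −0.62 to 0.08, Kcnn4 −0.02 to 0.58, Fxyd6 −0.37 to 0.02, Kctd15 −0.03 to 0.45 and Kctd20 −0.19 to 0.05. Further measured Kcn probes, not named by those rules, also changed sign and are not listed. With the slide block Kcnj14 was −0.38, Kcnk13 −0.05 and Kcnk1 0.01. With normexp the Kcnk3 probes were 0.22 and 0.15 and Kcnk1 0.02. Kcnk1 was 0.04 with the percentile over bright probes and 0.01 with quantile normalization.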

Other observations

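Voltage-gated sodium and calcium channels and HCN channels, the relatives of Kcn genes in excitable cells, gave 25 measured probes. Their median log2 change was 0.21. Of them 4 rose and 1 fell, beside 3.73% and 2.47% of all measured probes, and nothing is read from these counts. Scn3b, a sodium channel beta subunit, read −7.00 and −7.71 in the controls, neither well above background, and −4.36 and −4.76 after FBL knock-down, where both were. It was at least 2.28-fold higher (log2 change 2.79 ± 0.29 SE between measured means, limma adjusted p = 0.000444), and did not pass with normexp (0.59, adjusted p = 0.145). The probe entered the test through the knock-down group alone, which favours a rise.

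The T-type calcium channel gene Cacna1g rose 2.11-fold (log2 change 1.08 ± 0.24 SE, limma adjusted p = 0.0242) and the beta subunit Scn2b fell 2.30-fold (−1.20 ± 0.23 SE, adjusted p = 0.0134). Within the first slide neither passed, at similar sizes (1.10 and −1.14, adjusted p = 0.285 and 0.244), and with normexp neither passed at smaller ones (0.24 and −0.34, adjusted p = 0.702 and 0.532). The Kctd genes, which share a tetramerisation domain with Kv channels but encode no pore, gave 21 measured probes, none of which rose or fell by limma and 2 of which were lower at an unadjusted p under 0.05. Kctd15 differed by 0.21 ± 0.25 SE and Kctd20 by −0.07 ± 0.23 SE. In the imprinted neighbourhood of Kcnq1, 16 probes of 11 genes were measured, none rose or fell by limma, and 1 was higher and 1 lower at an unadjusted p under 0.05. Phlda2 differed by −0.36 ± 0.27 SE and −0.64 ± 0.26 SE at its 2 probes and Cd81 by 0.71 ± 0.23 SE.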
